A study of Mus musculus with 6 samples.

Results

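The genes described here encode the first steps by which muscle breaks down leucine, isoleucine and valine, together with the later steps that belong to leucine alone. They were chosen by name as 10 members of this pathway, Bcat1, Bcat2, Bckdha, Bckdhb, Dbt, Bckdk, Ivd, Mccc1, Mccc2 and Auh, out of 19938 named genes on the array. All 10 were on the array and passed the filter on dim genes, among 16487 genes tested. The rule took the probe set with the highest mean over all 6 arrays for each gene, and each member had 1 probe set, so no choice between probe sets was needed. The members were proposed with the genotype comparison of these same arrays already known. Their values and the p-values of the fit are therefore a description of these arrays and not independent evidence about the pathway.

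Gene expression was measured with a whole-transcript microarray in gastrocnemius, a calf muscle, of male mice aged 12 weeks. There were 3 wild type arrays and 3 arrays from mice homozygous for a knockout of Sparc, which encodes a secreted matricellular glycoprotein that binds collagen. Both genotypes carry the strain label B6;129S-Sparctm1Hwe/J, a mixed B6 and 129S background with the Sparc allele, and no other treatment or allele is labelled. The labels do not name the litter of a mouse or the part of the gene that the allele removes. A difference between litters, if the genotypes came from different ones, could not be told apart from genotype. The p-values set the genotype difference against the spread between these arrays. The study compared metabolic gene expression between the genotypes.

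Leucine, isoleucine and valine are largely spared by the liver and first taken up by muscle and other tissues. There a mitochondrial aminotransferase converts them to keto acids, and the branched-chain keto acid dehydrogenase complex then commits the keto acids to oxidation. A dedicated kinase phosphorylates the complex and switches it off. Beyond the complex the routes part, and leucine passes through isovaleryl-CoA dehydrogenase, methylcrotonyl-CoA carboxylase and methylglutaconyl-CoA hydratase toward acetyl-CoA and acetoacetate.

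Transcripts of the pathway were lower in Sparc knockout muscle for 9 of the 10 members by their mean, where 50% of all genes tested had a negative change, with the brain-type aminotransferase Bcat1 as the exception. Bckdhb, a subunit of the dehydrogenase complex, fell 1.69-fold, and Mccc1, a subunit of the leucine-specific carboxylase, fell 1.68-fold. These 2 members passed the test over all genes as lower, and 0 members passed as higher. Over all genes tested, 0.673% passed as lower and 0.321% as higher. In 8 members every knockout array lay below every wild type array, as in 13.8% of all genes tested. The median log2 change over the 10 members was -0.45, beside 0.00 over all genes tested.

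The Sparc transcript itself was read at 3561, 3393 and 3750.1 intensity units in the 3 wild type arrays and at 107, 87.9 and 56.9 in the knockouts. It was 43.9-fold lower in the knockouts (limma adjusted p = 2.08e-05). The median intensity of an array was 40.5 to 44.7, and the filter on dim genes lay at 14.9 units. Knockout arrays varied more than wild type arrays, with a median SD per gene of 0.163 against 0.0912 on the log2 scale. No member lies on the chromosome that carries Sparc, per the RefSeq gene table of GRCm38.p6. The muscle fibre genes were present in all arrays, with Ckm at log2 levels of 13.1 and 12.8 in wild type and knockout muscle.

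**Figure D1:**
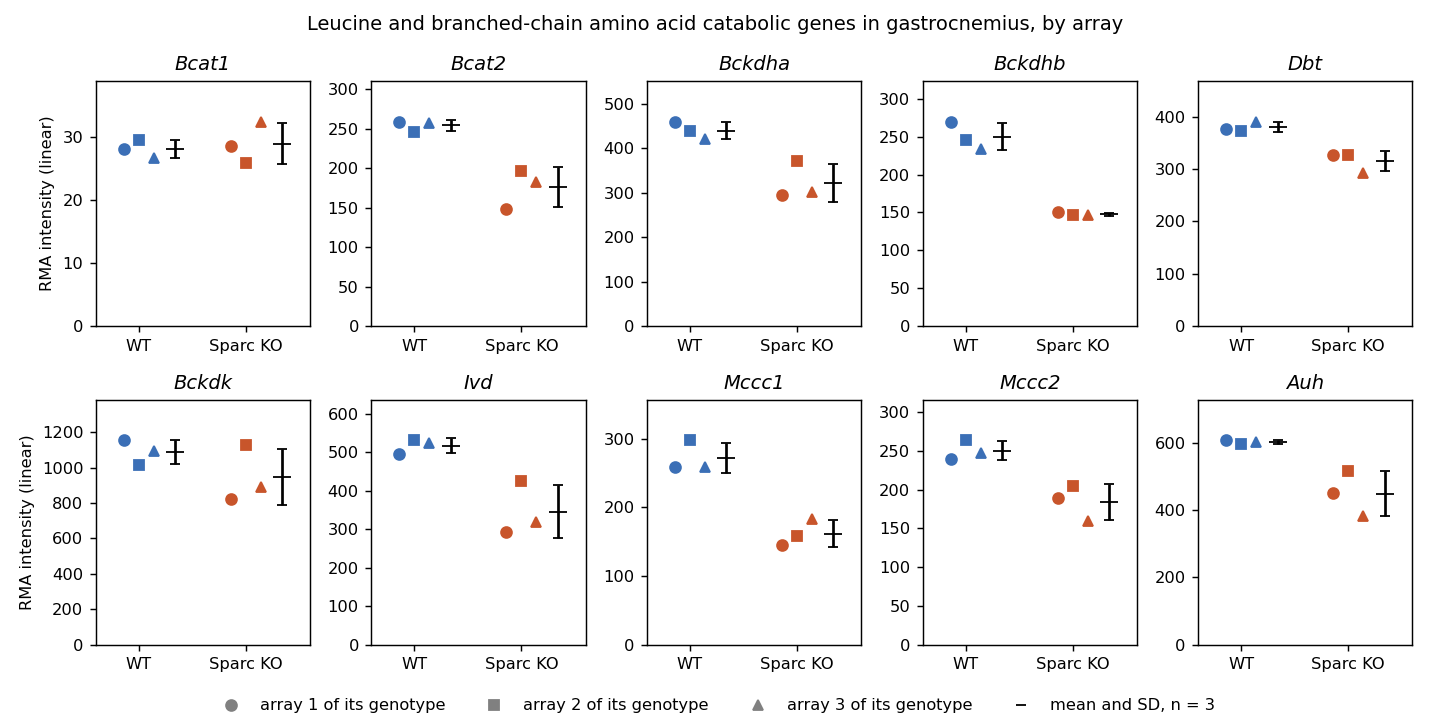
Deposited intensity (linear scale, from 0) of each of the 10 members in every array, with circles, squares and triangles for arrays 1, 2 and 3 of a genotype, and the mean and SD over 3 arrays in black. All 3 knockout arrays lie below all 3 wild type arrays in 8 panels, and the groups overlap in Bcat1 and Bckdk.

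The stretches of genome upstream of 4 members are shown because these mark the ends of the range: Bckdhb and Mccc1 fell, while Bckdk and Bcat1 had groups that overlap. The promoter table, from RefSeq (GRCm38.p6), matched 9 of the 10 members. Each stretch runs 5′ to 3′ on the strand of the gene, ends at the last base before the annotated gene, and lies at chr9:83924887-83925110 on the plus strand for Bckdhb, chr3:36000695-36000928 on the minus strand for Mccc1, chr7:127903823-127904072 on the plus strand for Bckdk and chr6:145076158-145076407 on the minus strand for Bcat1. Capitals mark matches, on either strand, to CCAAT, the CCAAT box, or to GGGCGG, the GC box.
Bckdhb: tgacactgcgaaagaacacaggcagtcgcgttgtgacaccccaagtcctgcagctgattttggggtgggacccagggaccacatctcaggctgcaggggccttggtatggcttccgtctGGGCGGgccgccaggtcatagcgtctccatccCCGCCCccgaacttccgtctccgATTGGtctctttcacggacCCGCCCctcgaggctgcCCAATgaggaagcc
Mccc1: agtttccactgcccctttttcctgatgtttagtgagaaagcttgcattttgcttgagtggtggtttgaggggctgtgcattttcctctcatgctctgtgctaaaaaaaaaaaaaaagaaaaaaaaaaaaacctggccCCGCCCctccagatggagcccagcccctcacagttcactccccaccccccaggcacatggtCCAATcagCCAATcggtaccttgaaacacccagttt
Bckdk: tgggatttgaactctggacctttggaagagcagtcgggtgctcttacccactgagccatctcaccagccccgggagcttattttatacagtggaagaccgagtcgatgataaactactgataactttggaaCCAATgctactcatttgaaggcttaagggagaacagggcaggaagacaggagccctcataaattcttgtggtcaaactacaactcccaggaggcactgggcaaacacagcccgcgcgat
Bcat1: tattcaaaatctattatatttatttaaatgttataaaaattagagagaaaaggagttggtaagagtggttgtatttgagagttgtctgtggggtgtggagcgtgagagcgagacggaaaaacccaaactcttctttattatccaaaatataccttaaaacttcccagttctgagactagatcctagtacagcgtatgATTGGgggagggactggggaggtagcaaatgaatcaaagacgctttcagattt
The Bckdhb stretch held 2 CCAAT and 3 GGGCGG matches close to the gene, and the Mccc1 stretch 2 and 1. The stretches of Bckdk and Bcat1 each held 1 CCAAT match and 0 GGGCGG matches. No CCAAT match overlapped a GGGCGG match in these stretches. In windows of 250 bases before the most upstream start that the promoter table lists for a gene, CCAAT was found in 6 of 9 members and in 34.5% of 27025 genes. The 6 were Ivd with 4 matches, Mccc1 and Mccc2 with 3 each, Bckdhb with 2, and Bckdk and Bcat1 with 1 each. Such a window can reach into the annotated gene: that of Bcat2 lies inside it, and 1 Mccc1 match lies in the part of its window that overlaps the gene and is not printed. GGGCGG was found in 3 of 9 members, Auh, Bckdhb and Mccc1, and in 33% of genes. TNAAGGTCA, the response element of estrogen-related receptors, was found in 0 of 9 members and in 1.13% of genes. CCAAT and GGGCGG were chosen after the sequences had been read, and CCAAT also stood before both members whose groups overlap.

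The aminotransferases carry out the reversible first step. Bcat2, the mitochondrial form and the main one in skeletal muscle, was read at 259, 246 and 258 in wild type arrays 1, 2 and 3 and at 148, 197 and 183 in knockout arrays 1, 2 and 3. The lowest wild type array thus stood above the highest knockout array. Its mean was 254 ± 6.95 in wild type and 176 ± 25.1 in knockout muscle (SD, n = 3 each). The fitted log2 difference, -0.54 ± 0.12 (SE), did not pass over all genes (limma adjusted p = 0.0759). Bcat1, the cytosolic form known from brain, was dim at 26.6 to 29.5 in wild type and 25.9 to 32.4 in knockout arrays. Its groups overlapped, with a log2 change of 0.04 and a 95% interval of -0.22 to 0.30.

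The branched-chain keto acid dehydrogenase complex is built of a decarboxylase with alpha and beta subunits, encoded by Bckdha and Bckdhb, around a core of lipoyl-bearing acyltransferase, encoded by Dbt. Bckdhb was read at 269.7, 246 and 234 in the wild type arrays and at 150.1, 146 and 146 in the knockouts. The knockout arrays were nearly identical to each other, with an SD of 0.02 on the log2 scale against 0.10 in wild type. Its log2 change was -0.76 ± 0.09 (SE; limma adjusted p = 0.0102), which on the linear scale puts the knockout level at 59.1% of wild type. Of all genes tested, 0.534% had a more negative change.

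Bckdha was read at 459, 438 and 421 in wild type and at 294, 371 and 301 in knockout arrays. The highest knockout value, in array 2, was still below the lowest wild type value. The log2 change was -0.45 ± 0.11 (SE; limma adjusted p = 0.0954). Dbt was read at 377, 373 and 391 in wild type and at 327, 327 and 293 in knockouts. Its groups were also separate, with a smaller log2 change of -0.27 ± 0.09 (SE; limma adjusted p = 0.165). The 95% interval was -0.97 to -0.55 for Bckdhb, -0.71 to -0.20 for Bckdha and -0.47 to -0.06 for Dbt. Whether the subunits differed in their change was not tested.

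Bckdk, the kinase that inactivates the complex, was read at 1154, 1017 and 1095 in wild type and at 825, 1128 and 891 in knockout arrays. Knockout array 2 lay inside the wild type range and the other knockouts below it. The log2 change was -0.21 ± 0.13 (SE; limma adjusted p = 0.419), with a 95% interval of -0.50 to 0.08. Ppm1k, the phosphatase that reactivates the complex (named after its values were seen), had a change of -0.27 ± 0.09 (SE; limma adjusted p = 0.180). Dld, the dehydrogenase subunit that the complex shares with pyruvate dehydrogenase (also named after its values were seen), had a change of 0.09 ± 0.08 (SE).

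On the leucine branch, Ivd encodes isovaleryl-CoA dehydrogenase, the flavoprotein that takes the first step after the complex. It was read at 495, 531 and 526 in wild type and at 294, 426 and 319 in knockout arrays. Knockout arrays 1 and 3 stood far below the wild types, and knockout array 2 lay between. The log2 change was -0.60 ± 0.14 (SE; limma adjusted p = 0.0829).

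Methylcrotonyl-CoA carboxylase joins a biotin-bearing alpha subunit, encoded by Mccc1, to a beta subunit, encoded by Mccc2. Mccc1 was read at 258, 298 and 259 in wild type and at 145, 158 and 183 in knockout arrays. The gap between the groups was wide, and here knockout array 2 was not the one nearest to the wild types. Its log2 change was -0.75 ± 0.12 (SE; limma adjusted p = 0.0283), which on the linear scale puts the knockout level at 59.4% of wild type. Mccc2 was read at 239.6, 264 and 247 in wild type and at 189, 204 and 159 in knockouts. Its groups did not overlap either, and the log2 change was -0.45 ± 0.11 (SE; limma adjusted p = 0.102).

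Auh encodes methylglutaconyl-CoA hydratase, which also binds AU-rich RNA. It was read at 608, 598 and 603 in wild type and at 451, 516 and 383 in knockout arrays. The wild type arrays lay within a narrow band and the knockouts were spread below it, with SDs of 0.01 and 0.22 on the log2 scale. The log2 change was -0.43 ± 0.12 (SE; limma adjusted p = 0.113).

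The calls on Bckdhb and Mccc1 were lost when any one wild type array was left out. Without wild type array 1, 2 or 3, Bckdhb had log2 changes of -0.70, -0.77 and -0.80 with limma adjusted p-values of 0.0712, 0.089 and 0.0673. Mccc1 had -0.79, -0.68 and -0.78, with 0.128, 0.161 and 0.140. Both calls held without any one knockout array. Without knockout array 2, 7 members passed as lower, namely Bckdhb, Mccc1, Ivd, Bcat2, Bckdha, Mccc2 and Auh, and 594 of all genes did. With all arrays, 8 members had an unadjusted p under 0.05 as lower, beside 10.3% of all genes tested.

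The knockout arrays differed among themselves in most members. The mean over the members stood at -0.52, -0.32 and -0.48 from the wild type mean on the log2 scale in knockout arrays 1, 2 and 3. Wild type arrays lay between -0.02 and 0.01. Knockout array 2 was the nearest to the wild types in Bcat2, Bckdha, Bckdk, Ivd, Mccc2 and Auh, at -0.37, -0.24, 0.05, -0.28, -0.29 and -0.23 from their mean. Bckdhb stood at -0.73, -0.77 and -0.77 in the 3 knockout arrays.

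**Figure D2:**
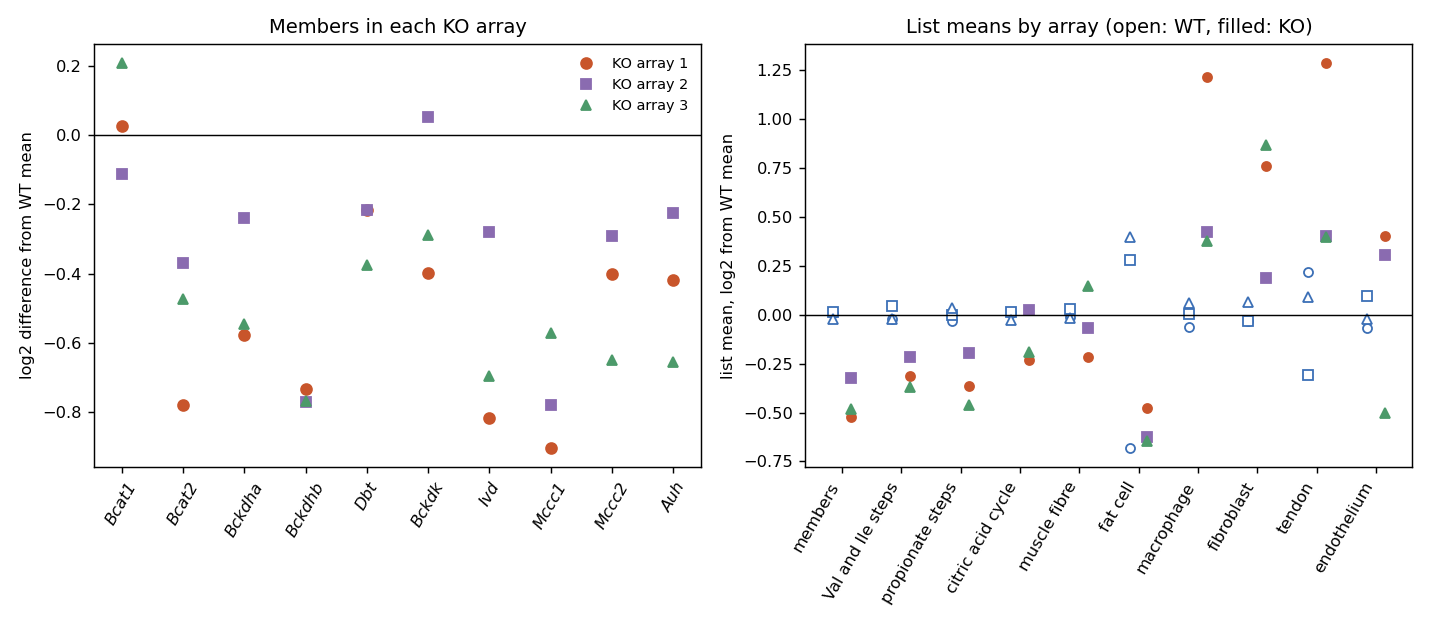
Left, log2 difference of each member from the wild type mean in knockout arrays 1 (circles), 2 (squares) and 3 (triangles). Right, mean over the genes of a list in every array, as log2 difference from the wild type mean, with wild type arrays open and knockout arrays filled. The members' mean lies between -0.52 and -0.32 in the knockout arrays, the citric acid cycle mean between -0.23 and 0.02, and the fat cell mean between -0.65 and -0.48.

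Further genes of branched-chain amino acid metabolism were taken from 5 lists with 48 genes, of which 45 were tested. By limma 0 passed over all genes in either direction. At an unadjusted p under 0.05, 19 were lower and 1 was higher, beside 10.3% lower and 8.16% higher of all genes tested. The changes were negative in 34 of the 45, beside 50% of all genes tested, with a median log2 change of -0.21.

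In the valine and isoleucine branch, all 11 genes had negative changes, with a median of -0.32. In 9 of them the knockout arrays lay below the wild types. Of all genes tested, 50% had a negative change and 13.8% had all knockout arrays below the wild types. Ehhadh, a bifunctional peroxisomal enzyme of fatty acid oxidation, stood at a log2 difference of -0.50 ± 0.11 (SE; limma adjusted p = 0.0716). Hibadh and Hibch, which process hydroxyisobutyrate and its CoA ester in valine breakdown, had changes of -0.41 ± 0.10 and -0.34 ± 0.09 (SE; both limma adjusted p = 0.102).

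The propionate steps come next, taking the propionyl-CoA of valine and isoleucine to the citric acid cycle. All 5 tested genes had negative changes, with a median of -0.40, beside 50% of all genes tested. In all 5 the knockout arrays lay below the wild types, as in 13.8% of all genes tested. The carboxylase subunits Pcca and Pccb had changes of -0.43 ± 0.12 and -0.40 ± 0.12 (SE), and Mmab, which prepares the cobalamin cofactor, -0.52 ± 0.15 (SE), with limma adjusted p-values of 0.124 to 0.143.

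The distal leucine steps, which handle ketone bodies and acetoacetyl-CoA, gave another picture. Over 4 tested genes the median was -0.03, and the groups overlapped in each. Oxct1, the transferase that activates acetoacetate, had a change of -0.25 ± 0.11 (SE; limma adjusted p = 0.280). Acat1, the mitochondrial acetoacetyl-CoA thiolase, and Hmgcs1, the cytosolic HMG-CoA synthase, had a change of -0.03 each, with SEs of 0.10 and 0.17.

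Carriers and nitrogen partners were divided, with 6 negative and 6 positive changes among 12 genes. Gpt2, the mitochondrial alanine aminotransferase, had a change of -0.77 ± 0.15 (SE; limma adjusted p = 0.0602). It was the largest negative change among the 45 genes, with knockout arrays at -1.07, -0.42 and -0.83 from the wild type mean. Slc25a44, the mitochondrial carrier of branched-chain amino acids, had a change of -0.50 ± 0.13 (SE; limma adjusted p = 0.108). Slc43a1, a plasma membrane carrier of large neutral amino acids, had a change of -0.44 ± 0.14 (SE; limma adjusted p = 0.143). The knockout arrays lay below the wild types in 3 of the 12 genes and above them in 2, beside 13.8% and 11.1% of all genes tested. The 2 above, Slc3a2 and Slc7a5 (named after their values were seen), had changes of 0.21 ± 0.11 and 0.14 ± 0.09 (SE).

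Among 13 cofactor enzymes, partners and regulators, 9 changes were negative, beside 50% of all genes tested, and the median was -0.08. Lipt2, which starts lipoyl synthesis as an octanoyltransferase, and Lipt1, which moves lipoyl groups onto dehydrogenase complexes, had changes of -0.42 ± 0.11 and -0.41 ± 0.09 (SE; limma adjusted p = 0.110 and 0.0767). Ppargc1a, a coactivator of mitochondrial genes, had a change of 0.44 ± 0.12 (SE; limma adjusted p = 0.122), with all knockout arrays above the wild types.

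**Figure D3:**
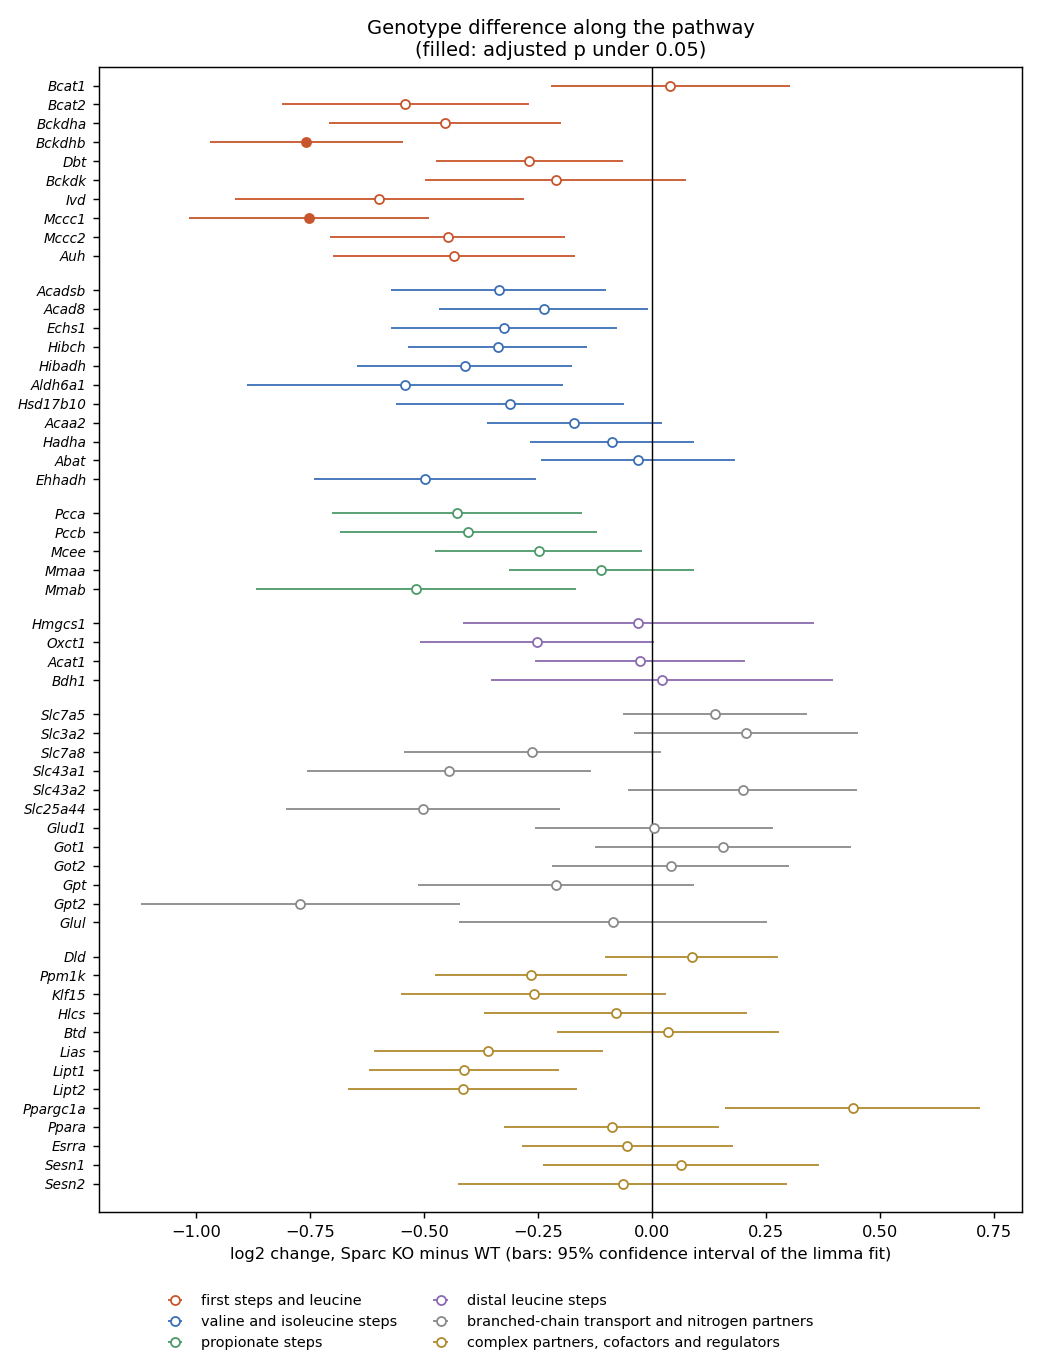
Log2 change (knockout minus wild type) with the 95% confidence interval of the limma fit for the 10 members and the 45 tested genes of the other lists, grouped by step. Filled points, Bckdhb and Mccc1, passed an adjusted p of 0.05. Points of the valine, isoleucine and propionate lists lie left of 0, and those of the carriers fall on both sides.

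The samples are whole muscle, so fewer cells of a type and less RNA per cell cannot be told apart in any of these values. Citric acid cycle genes, another mitochondrial group, had a median change of -0.08 over 16 tested genes, and 0 passed by limma. Their changes were negative in 10, beside 50% of all genes tested. At an unadjusted limma p under 0.05, 5 were lower and 0 higher, beside 10.3% and 8.16% of all genes tested. Their mean was -0.23, 0.02 and -0.19 in knockout arrays 1, 2 and 3, beside -0.52, -0.32 and -0.48 for the members. In 5 of the 16 citric acid cycle genes the knockout arrays lay below the wild types, beside 13.8% of all genes tested. The part of a wider mitochondrial difference in the members' values was not tested. Sdha had a change of -0.34 ± 0.09 and Suclg1 one of -0.32 ± 0.09 (SE; limma adjusted p = 0.119 and 0.133).

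Muscle fibre markers had a median change of -0.11 over 10 genes, 7 negative and 3 positive, beside 50% negative of all genes tested. In 5 of the 10 the knockout arrays lay below the wild types and in 1 above, beside 13.8% and 11.1% of all genes tested. Their list mean lay between -0.22 and 0.15 in the knockouts against -0.02 to 0.03 in wild type arrays. Ckm, muscle creatine kinase, had a change of -0.28 ± 0.08 and Actn3, the fast fibre actinin, one of -0.25 ± 0.09 (SE). The positive changes, named after their values were seen, were 0.43 in Myh1, 0.24 in Myh2 and 0.17 in Mb. Myh7, 1 of the 7 negative markers and also named after its values were seen, had a change of -0.31 ± 0.42 (SE). Its intensity was 299.5 and 325 for knockouts 1 and 2 but 1086 for knockout 3. The wild types were read at 551, 584 and 624. The part of these markers in the members' lower values was not tested.

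Fat cells also break down branched-chain amino acids, and all 8 fat cell markers tested had negative changes, with a median of -0.46. Of all genes tested, 50% had a negative change. The knockout arrays lay below the wild types in 1 of the 8, beside 13.8% of all genes tested. Retn, resistin, had a change of -1.44 ± 0.37 and Lep, leptin, one of -1.15 ± 0.37 (SE; limma adjusted p = 0.102 and 0.157). The fat cell list stood at -0.65 to -0.48 in the knockout arrays, and at -0.68, 0.28 and 0.40 in wild type arrays 1, 2 and 3. The members' mean was 0.01, 0.01 and -0.02 in the same wild type arrays. The part of fat cells in the members' lower values was not tested.

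Markers of other cells went the other way. All 10 macrophage, 7 fibroblast and 6 tendon markers had positive changes, with medians of 0.68, 0.71 and 0.89 and 0 past the limma threshold. In 8, 4 and 4 of them the knockout arrays lay above the wild types, beside 11.1% of all genes tested. At an unadjusted limma p under 0.05, 8, 5 and 3 were higher, beside 8.16% of all genes tested. Cd68 and Lyz2, macrophage genes, had changes of 0.99 ± 0.23 and 0.85 ± 0.22, Col1a2 and Pi16, fibroblast genes, 0.71 ± 0.22 and 0.62 ± 0.20, and Thbs4 and Comp, tendon genes, 1.15 ± 0.23 and 1.02 ± 0.34 (SE). The macrophage list stood at 1.21, 0.42 and 0.38 in knockout arrays 1, 2 and 3, the fibroblast list at 0.76, 0.19 and 0.87, and the tendon list at 1.29, 0.40 and 0.40, against -0.31 to 0.22 in wild type arrays over the 3 lists. Endothelial markers had a median change of -0.01 over 5 genes, 3 negative and 2 positive, with the 2 positive ones, Pecam1 and Emcn, at 0.19 and 0.22. Their list mean stood at 0.40, 0.30 and -0.50 in knockout arrays 1, 2 and 3. Of the Schwann cell list, S100b and Mbp were tested, with changes of 0.14 and -0.03. The part of these cells in the members' values was not tested.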

How the data were processed

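Muscle RNA of 3 wild type and 3 Sparc knockout mice was hybridised to 1 array each. The authors deposited linear intensities per probe set, from 1.59 to 13565.8. The submitters' processing notes name RMA and Affymetrix Expression Console 1.3.0.187. RMA removes background, equalises the arrays and can shrink differences between dim values. The planned analysis had assumed log2 values, so the deposited intensities were put on the log2 scale without an offset. A genome build for the probe sets was not given in the sources used here. Precision is limited by the number of arrays.

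Probe sets with 1 gene symbol in the platform annotation were used (21789 of 35556, with 1621 holding several symbols and 12146 unnamed), 1 per gene by highest mean. Dim genes, with a mean below the 25th percentile over probe sets (log2 of 3.90), were left out, 3451 in all. All 6 value columns were used. Limma 3.58.1 in R 4.3.3 fitted genotype by lmFit and eBayes with a variance trend. Tests were two-sided, with Benjamini-Hochberg adjustment over 16487 genes and a threshold of 0.05. The fit was tested on simulated data with independent noise and the same spread in both genotypes. In the real data the knockout arrays varied more, and the planted changes were larger than those of the members. That test therefore does not show how the fit behaves for the members. Alternatives were other centring and normalization, dim filters, probe-set averaging, variance priors, array weights, a replicate block, an offset of 16 and leaving out each array.

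Members and lists were chosen with earlier results of these data known. Named were all members and Sparc, in each pathway list the genes past the threshold up to 4 and the 3 with the smallest p, and the 2 with the smallest p of the citric acid cycle and marker lists. Some listed genes are not reported here.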

Additional observations from a re-analysis of the deposited data

How the results depend on the processing

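The count of members past the threshold stayed at Bckdhb and Mccc1 under all alternatives that keep all arrays, except array weights, which added Bcat2 at -0.46. It ran from 0 to 7 when 1 array was left out, 0 without any wild type array and 7 without knockout array 2. The count over all genes, 164 with all arrays, was 103 after median centring and 329 with array weights, and ran from 27 (without wild type array 3) to 1017 (without knockout array 2), with 32 and 30 without wild type arrays 1 and 2. Of the other pathway genes, 2 passed with array weights (Gpt2 and Ehhadh), and 0 to 9 when 1 array was left out, with 9 without knockout array 2. The 9 members below wild type kept a negative change under all 16 alternatives. Bcat1 changed sign, to -0.0011 after median centring, -0.010 after a second quantile normalization and -0.044 without knockout array 3, with a range of -0.044 to 0.116 when 1 array was left out, and the stricter dim filter, at 5.40 on the log2 scale, removed it. The adjusted p over the alternatives ran from 0.00523 to 0.089 for Bckdhb and from 0.0134 to 0.161 for Mccc1.

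Replicate numbers are shared between the genotypes, and the labels state no pairing of the arrays. Deviations from the group means correlated at 0.01, 0.08 and -0.02 for numbers 1, 2 and 3. The value for number 2 was the largest over all pairs of arrays, but not every array correlated best with its own number. Deviations cancel within a group of 3 arrays, so these correlations cannot decide whether the arrays were paired. With the number as a replicate block, 123 genes passed, 2 members passed and 1 other pathway gene, Gpt2, passed. Values close to the dim filter, as in Bcat1, limit what the arrays can resolve, and no detection calls were used.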
